A study of Mus musculus with 8 samples.

Results

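The centromere-proximal ends of the mouse autosomes were described in 4 HA chromatin immunoprecipitation (ChIP) libraries. An end was taken as every 10 kb bin of chromosomes 1 to 19 that finished at or before 6 Mb in the mouse build mm9, in which mapped sequence starts near 3 Mb. The rule used position alone and no measured value. It gave 5478 of the 253926 rows of the deposited bin table, or 54.78 Mb over 19 autosomes, and they were set against the other 226561 autosomal 10 kb bins. Of the 5478 bins, 5358 (97.8%) had a mean of at least 0.5 RPM (reads per 1000000 reads of the library) over the 4 libraries and entered medians and ratios. Of the 120 bins under that level, 96 were on chromosome 14, 9 on chromosome 7 and 4 each on chromosomes 16 and 19. Among the 120 were 7 rows, on 7 autosomes, that started before 3 Mb and held no read. Another 92 rows of 20 to 100 kb in the same interval were not members. They covered 2290 kb and held a median of 3.05 to 3.35 RPM per 10 kb.

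The cells were C3H10T1/2, mesenchymal progenitor cells derived from embryos of C3H mice, at passage 10 to 15. All 4 lines were engineered to express a FLAG- and HA-tagged histone H3 stably beside their own histones. The tagged histone was H3.1 or H3.3, either wild type (H3.1WT, H3.3WT) or with lysine 36 replaced by methionine (H3.1K36M, H3.3K36M), a replacement known from chondroblastoma for H3.3. Each line gave 1 HA library, so the 4 groups had 1 library each, no difference below has a replicate check, and no test was made. For the 2 H3.3 lines the sample title opens with the name of an H3.1 line although the genotype given is H3.3, and the genotype decided the group. Input libraries were not used here, so the parts played by copy number and by how well each bin can be mapped were not tested.

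Mouse autosomes are acrocentric: the centromere lies at one tip, packed in long arrays of satellite repeats that the assembly leaves out. The first mapped bins therefore border pericentromeric heterochromatin, and some carry copies of repeats whose reads belong to many places in the genome. H3.1 is deposited by the CAF-1 complex when DNA is copied, and so covers most chromatin evenly. H3.3 is deposited outside replication, by HIRA at active genes and regulatory elements and by DAXX and ATRX at repeats, telomeres and pericentromeric chromatin. Lysine 36 is the residue that the SETD2 and NSD enzymes methylate, and methionine there inhibits them.

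The 4 libraries held 35487141 (H3.1WT) and 41705735 reads (H3.1K36M) for H3.1, and 46749609 (H3.3WT) and 38783917 (H3.3K36M) for H3.3, as recovered from the RPM steps. A centromere-proximal bin held a median of 130 to 161 reads, and the ends took 2.61% to 2.81% of all reads. Across the 5358 bins, log2 RPM correlated at r = 0.94 between the 2 H3.1 libraries and 0.91 between the 2 H3.3 libraries. Pairs of 1 H3.1 and 1 H3.3 library gave r of 0.59 to 0.62. These values are descriptions across bins, which are not replicates, and the libraries share the mappability of each bin. Without the bins of very high signal described below and without chromosome 14, the 5237 bins left gave 0.90 and 0.89 within a histone type and 0.46 to 0.50 across types.

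At the ends H3.1 was close to its level elsewhere, and H3.3 was somewhat above. The median level was 3.79 RPM per 10 kb in H3.1WT against 3.65 in other autosomal bins, a ratio of 1.04. H3.1K36M held 3.81 RPM against 3.66, also a ratio of 1.04. In H3.3WT the ends held 3.46 RPM against 2.84, a ratio of 1.22, and in H3.3K36M 3.37 against 3.03, a ratio of 1.11. Taken within each chromosome, the median ratio over the 19 autosomes was 0.989 in H3.1WT, 0.992 in H3.1K36M, 1.14 in H3.3WT and 1.04 in H3.3K36M, so the small H3.1 excess did not hold within chromosomes.

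Bins of an end differed from each other far more in H3.3 than in H3.1. The 90th percentile of bin levels stood 5.74 times above the 10th percentile of H3.3WT, and in H3.3K36M the factor was 4.81. For H3.1WT and H3.1K36M the factors were 2.27 and 2.14. The spread was much like that of other autosomal bins, where it was 5.92 and 4.19 in the H3.3 libraries and 2.19 and 2.09 in the H3.1 libraries. Chromatin near the centromeres was thus a patchwork of H3.3-rich and H3.3-poor bins on an even H3.1 ground, as the rest of the autosomes were.

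By zone medians, the H3.3 level varied with distance from the start of mapped sequence, while H3.1 hardly did. In H3.3WT the median of the first 100 kb was 2.11 RPM, that of the next 400 kb (100 to 500 kb) 3.93 RPM, and that of the stretch from 500 to 1000 kb 2.84 RPM. It then ran from 2.90 RPM (1000 to 1500 kb) through 3.78 RPM (1500 to 2000 kb) to 4.13 RPM (2000 to 2500 kb), and was 3.40 RPM in the last 500 kb. H3.3K36M was likewise lowest in the first 100 kb, and ran over the same 7 zones at 2.49, 3.78, 3.21, 3.19, 3.79, 3.52 and 3.08 RPM. Its highest zones were those from 100 to 500 kb and from 1500 to 2000 kb, whereas that of H3.3WT was from 2000 to 2500 kb. H3.1WT stayed between 3.68 and 3.89 RPM and H3.1K36M between 3.71 and 3.98 RPM in all 7 zones. The zones held 175 bins nearest the start and 717 to 920 bins each beyond it.

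**Figure D1:**
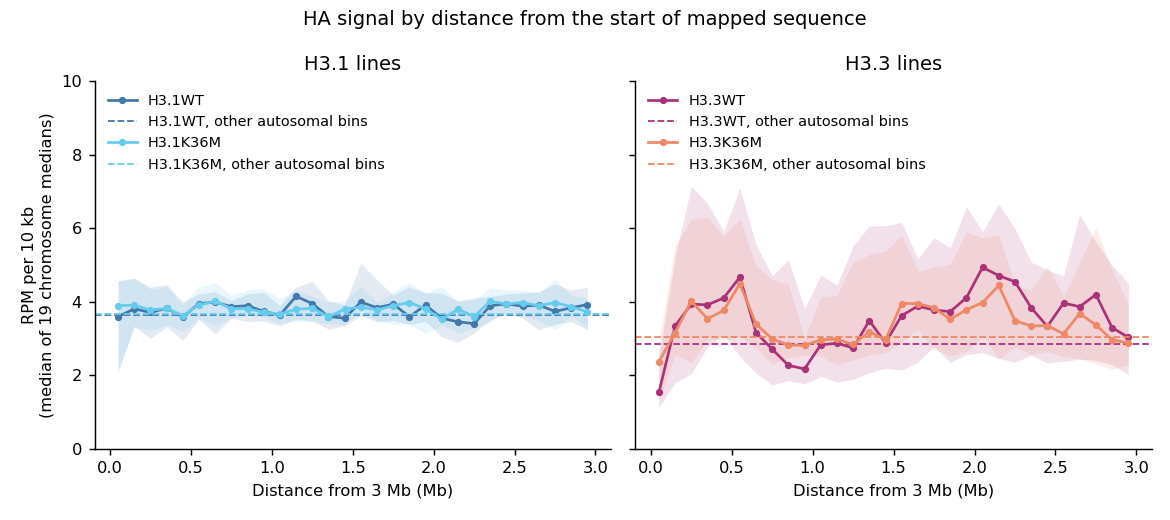
HA signal in RPM per 10 kb (vertical axes) by distance from 3 Mb in Mb (horizontal axes), in steps of 100 kb, for the H3.1 lines (left) and the H3.3 lines (right). Points are the median over 19 autosomes of each autosome's median, shading spans the quartiles over autosomes, and dashed lines mark the median of other autosomal bins. The H3.3WT points begin at 1.54 RPM and reach 4.67 RPM at 500 to 600 kb and 4.93 RPM at 2000 to 2100 kb, whereas the H3.1 points stay near their dashed lines.

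By the median bin, the first 100 kb of mapped sequence held the least H3.3 of the 7 zones. By the mean it held the most, at 18.7 RPM in H3.3WT and 17.8 in H3.3K36M against 3.95 to 5.28 RPM in the other zones. The H3.1 means were higher still, at 36.1 RPM in H3.1WT and 40.7 in H3.1K36M against 3.84 to 4.93 RPM in the other zones. The bins of very high signal on chromosomes 9, 11 and 18 that are described below lie in the first 100 kb. H3.3WT held a median of 2.11 RPM there against 3.53 RPM in the rest of the ends, and its median was lower than that of the rest of the same end on 16 of 19 autosomes. H3.3K36M held 2.49 against 3.39 RPM, lower on 15 autosomes, higher on 3 and equal on 1. H3.1WT held 3.82 against 3.79 RPM and H3.1K36M 3.98 against 3.81 RPM, with the first 100 kb higher on 8 and 10 autosomes. The pooled H3.1 medians thus showed no drop, but single ends did. H3.1WT was lower in the first 100 kb on 11 autosomes, for example at 0.82 against 5.73 RPM on chromosome 19, 0.85 against 4.56 on chromosome 16 and 1.94 against 3.69 on chromosome 8. The first 100 kb had only 6 kept bins on chromosome 19, 5 on chromosome 16 and 4 on chromosome 14, against 10 on every other autosome.

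Read as a ratio within a bin, H3.3 over H3.1 was also lower near the start. The median log2 ratio of H3.3WT over H3.1WT was -0.84 in the first 100 kb and -0.21 beyond it, lower on 16 of 19 autosomes. For H3.3K36M over H3.1K36M it was -0.60 against -0.22, lower on 17 autosomes. The 2 pairs of libraries are separate lines, and both showed the same direction. Chromosomes 2, 10 and 14 went the other way in the WT pair. H3.3WT held 6.15 RPM on chromosome 2 and 5.68 RPM on chromosome 10 in the first 100 kb, while chromosome 14 was low throughout, with ratios of -0.97 and -1.07. On chromosome 11 the ratio of the WT pair was -0.39 near the start and 0.42 beyond, although both histones were very high there.

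The K36M libraries sat slightly above the WT libraries at the very start. H3.3K36M over H3.3WT had a median log2 ratio of 0.18 in the first 100 kb against 0.05 in the rest of the ends, higher on 14 of 19 autosomes. That was not particular to the start: the median was 0.16 from 500 to 1000 kb and 0.13 from 1000 to 1500 kb. By the median over autosomes, these 2 zones (0.19 and 0.14) were not below the first 100 kb (0.14). H3.1K36M over H3.1WT had 0.06 against 0.00, higher on 16 of 19. Both differences were small beside the range over autosomes: in the first 100 kb the H3.3 ratio ran from -0.40 on chromosome 2 to 0.63 on chromosome 18. The first 10 kb row at or past 3 Mb showed the same order of libraries, with medians over autosomes of 4.19 RPM for wild-type and 4.29 RPM for mutant H3.1, and of 2.11 and 2.41 RPM for H3.3.

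A few bins next to the start held far more HA signal than any other stretch of the ends, in all 4 libraries. At least 10 times the median of other autosomal bins was reached in all 4 libraries by 14 of the 5358 end bins (0.261%), where 0.0126% of all autosomal bins did so (29 bins). The 14 bins all lay within 120 kb of 3 Mb, with chromosome 11 holding 7, chromosome 9 holding 4, chromosome 12 holding 2 and chromosome 18 holding 1. They were singled out after their values were seen, and the level of H3.1, of H3.3 and of both mutants was high in each.

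The 40 kb at the start of chromosome 9, chr9:3000001-3040000, held 1232 RPM per 10 kb in H3.1WT, 1405 in H3.1K36M, 558 in H3.3WT and 505 in H3.3K36M. In the 500 kb that followed, the 4 values were 3.05, 3.33, 2.58 and 2.36 RPM. No further bin of that end reached 10 times the median of other autosomal bins in any library. On chromosome 12 the pair of bins chr12:3100001-3120000 held 276, 326, 133 and 128 RPM in the same order of libraries, and the next 500 kb held 4.49, 4.46, 6.92 and 7.22 RPM. Here the bins nearest the start had ordinary levels and the high pair lay further in.

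On chromosome 11 the high stretch was longer and lower. The 70 kb of chr11:3030001-3100000 held 96.3, 105.4, 73.4 and 71.3 RPM, and the next 500 kb held 3.97, 4.11, 7.35 and 7.19 RPM. The single bin chr18:3000001-3010000 held 50.6, 59.0, 52.6 and 67.1 RPM, against 3.50, 3.33, 2.35 and 2.89 RPM over the 48 bins of the next 500 kb. Each of the 4 stretches thus ended at a sharp edge in every library. The 5 bins of highest RPM were the same in each of the 4 libraries, namely the 4 on chromosome 9 and chr12:3110001-3120000. These 5 bins alone held 19.3% of all H3.1WT reads at the ends, 21.3% of those of H3.1K36M, 9.15% of those of H3.3WT and 8.36% of those of H3.3K36M. They also raised the mean of all end bins, less so in the H3.3 libraries, and this is why medians are used here. That mean was 4.79 to 5.15 RPM, where the mean of other bins was 3.96 to 4.01 RPM.

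**Figure D2:**
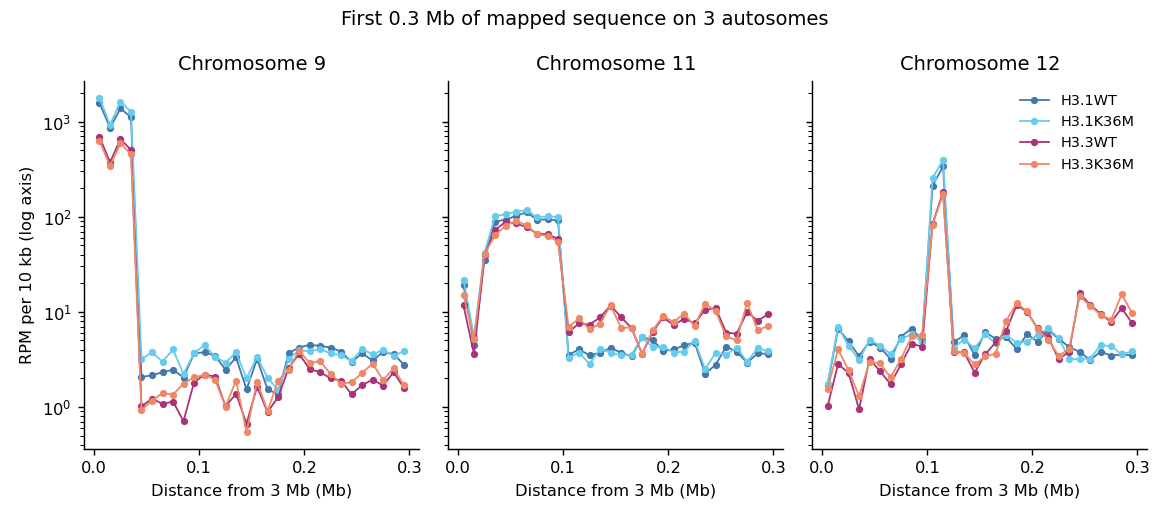
HA signal in RPM per 10 kb (vertical axis, log scale) by distance from 3 Mb in Mb (horizontal axes) over the first 0.3 Mb of chromosomes 9, 11 and 12, with 1 point per bin and 1 line per library. The 4 libraries stand together at 344 to 1786 RPM in the 4 bins at the start of chromosome 9, and the H3.1 lines lie above the H3.3 lines there and in the high pair of chromosome 12.

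Within these 14 bins the H3.1 libraries were above the H3.3 libraries. H3.3WT was above H3.1WT in 1 of 14 bins, with log2 ratios from -1.32 to 0.06 and a median of -0.59. H3.3K36M was above H3.1K36M in 1 of 14 bins, with a median of -0.77. Over the 40 kb on chromosome 9 the H3.1WT level was 2.21 times that of H3.3WT (95% exact interval on the reads 2.19 to 2.23), and the H3.1K36M level was 2.78 times that of H3.3K36M (2.76 to 2.80). Such intervals allow for counting error alone, and since reads carried no molecular identifiers they are not counts of independent molecules. The 15 bins of the same height elsewhere on the autosomes had median log2 ratios of -0.92 (WT pair) and -0.68 (K36M pair), so H3.3 below H3.1 was also seen in such bins away from the ends.

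Mutant and wild type differed little in the high bins. H3.1K36M was above H3.1WT in 14 of 14 bins, by a median log2 ratio of 0.18 (range 0.07 to 0.27). H3.3K36M was above H3.3WT in 3 of 14, with a median of -0.08 (range -0.19 to 0.35). In the 15 high bins elsewhere, H3.1K36M was above H3.1WT in 13 with a median of 0.05, and H3.3K36M above H3.3WT in 12 with a median of 0.28. With 1 library per line, a shift of this size cannot be told apart from a difference between libraries.

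By the SD over autosomes, the 19 ends differed more from each other than the rests of the 19 autosomes did. The SD of the end medians over autosomes was 0.853 RPM in H3.1WT, 0.879 in H3.1K36M, 1.84 in H3.3WT and 1.49 in H3.3K36M. For the rests of the autosomes, which are much longer, it was 0.370, 0.363, 0.586 and 0.362 RPM. The H3.1 SDs of the ends include chromosome 14 (1.10 RPM in H3.1WT, 1.20 in H3.1K36M) and chromosome 19 (5.67 and 5.89 RPM). The other ends ran from 2.97 to 4.47 RPM in H3.1WT and from 3.11 to 4.75 RPM in H3.1K36M. No SD was taken without chromosomes 14 and 19, so for H3.1 a wider spread is not shown for the other ends. The end was higher than the rest of its autosome on 9 of 19 autosomes in both H3.1 libraries, on 12 in H3.3WT and on 11 in H3.3K36M. There was accordingly no common direction over autosomes.

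The end of chromosome 19, a short and gene-dense autosome, was the highest in all 4 libraries. It held median levels of 5.67 RPM in H3.1WT, 5.89 in H3.1K36M, 8.36 in H3.3WT and 7.77 in H3.3K36M, which were 1.39, 1.46, 2.42 and 2.11 times those of the rest of the chromosome. The end of chromosome 5 followed for H3.3 relative to its rest, at 5.59 RPM in H3.3WT (2.32 times) and 5.28 RPM in H3.3K36M (2.02 times), while H3.1 was 1.35 and 1.30 times its rest. The chromosome 16 end was at 1.82 (H3.3WT) and 1.53 times (H3.3K36M) its rest, and chromosome 11 at 1.45 and 1.47 times. On these 4 autosomes both H3.3 libraries stood well above the rest of the chromosome.

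On chromosomes 12, 2, 17 and 18 the ratio of end to rest was lower in H3.3K36M than in H3.3WT. It was also lower on chromosomes 19, 5 and 16. The end of chromosome 12 held 5.05 RPM in H3.3WT, 2.01 times its rest, but 3.65 RPM in H3.3K36M, 1.23 times its rest. Chromosome 2 had 5.72 RPM (1.68 times) in H3.3WT and 4.53 RPM (1.31 times) in H3.3K36M. Chromosome 17 had 4.35 RPM (1.42 times) in H3.3WT and 3.42 RPM (1.00 times) in H3.3K36M. The chromosome 18 end was level in the 2 libraries, at 3.64 and 3.65 RPM. Its ratios of 1.46 and 1.16 differed because the rest of the chromosome held 2.49 RPM in H3.3WT and 3.16 in H3.3K36M. The H3.1 libraries were at 0.98 to 1.10 times the rest on all 4.

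The lowest end in all 4 libraries was that of chromosome 14. It held only 1.10 RPM in H3.1WT, 1.20 in H3.1K36M, 0.516 in H3.3WT and 0.596 in H3.3K36M, or 0.29, 0.32, 0.21 and 0.22 times its rest. It had 203 rows of 10 kb where other ends had 283 to 298, and 107 of them passed the filter. All 4 libraries were low there, the H3.1 libraries included, and 27 of the 92 wider rows lay on it. Chromosomes 1 and 9 were the next lowest in H3.3WT. On chromosome 9 H3.3WT was at 0.69 and H3.3K36M at 0.80 times the rest, with both H3.1 libraries at 0.92 to 0.93 times. For chromosome 1 these ratios were 0.73 (H3.3WT) and 0.90 (H3.3K36M). In the H3.1 libraries chromosome 7 was the second lowest by level, at 2.97 and 3.11 RPM.

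**Figure D3:**
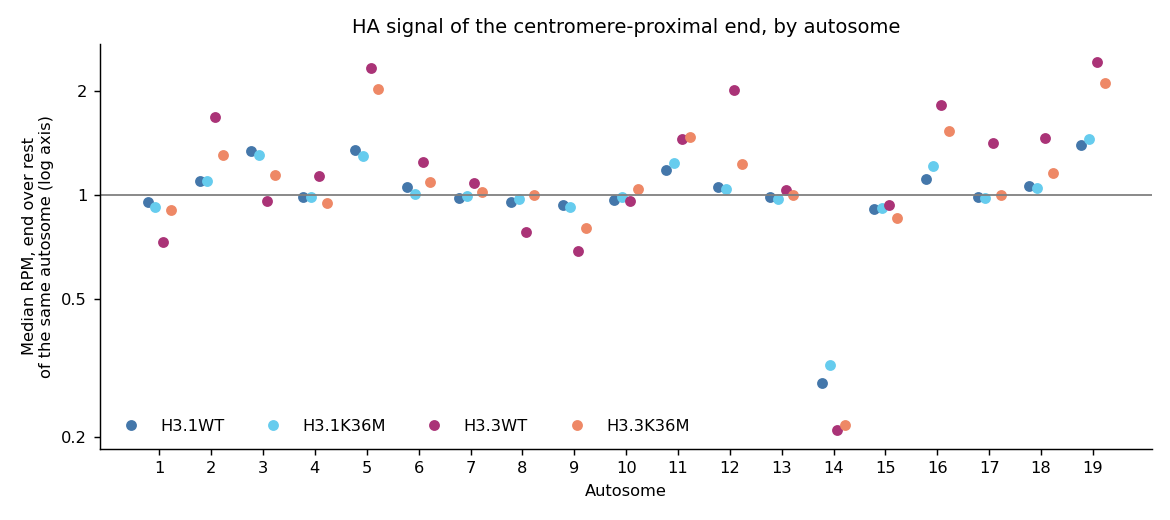
Median RPM of the centromere-proximal end divided by the median RPM of the rest of the same autosome (vertical axis, log scale) for each of 19 autosomes (horizontal axis), with 1 point per library and a grey line at equal levels. Chromosome 14 lies below 0.4 in all 4 libraries, chromosome 19 lies above 1.3 in all 4, and the H3.3 points spread more widely than the H3.1 points.

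Mutant and wild-type H3.3 were compared with 1 library of each line. Whether a difference goes with the replacement, the line or the library was not tested. At the ends the 2 libraries were close, H3.3K36M over H3.3WT having a median log2 ratio of 0.06 against 0.10 in other autosomal bins. This difference of -0.04 turned to 0.06 in bins at or above the median signal. At least 2-fold higher, which is a mark of size with no test behind it, were 72 of 5358 end bins (1.34%), where 3.04% of all autosomal bins were. At least 2-fold lower were 60 end bins (1.12%), where 1.90% of all autosomal bins were. Both shares were below the background. Scaled so that the median ratio of all autosomal bins was 0, a shift of -0.10, the counts were 49 higher and 97 lower, so the share of higher among differing bins went from 54.5% to 33.6%.

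The bins with less mutant H3.3 were gathered on few autosomes. Chromosome 12 held 30 of the 60, chromosome 17 held 9, chromosome 4 held 7 and chromosome 15 held 6. The median log2 ratio of the chromosome 12 end was -0.33, against 0.15 in the rest of that chromosome. On chromosome 15 the end had -0.35 and the rest -0.19, and on chromosome 4 -0.19 and 0.05. The chromosome 12 end thus stood furthest from its own chromosome, by -0.49 on the log2 scale.

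The outer part of the chromosome 12 end showed this over a long stretch. Over chr12:5200001-5900000, a stretch picked after its values were seen, H3.3WT held 4.70 RPM per 10 kb and H3.3K36M 2.43 RPM. H3.1WT and H3.1K36M held 3.67 and 3.75 RPM there. H3.3WT was 1.93 times higher than H3.3K36M (interval 1.88 to 1.99), and the H3.1 pair differed by a factor of 1.02 (0.99 to 1.05). In RPM, H3.3WT was thus above H3.1WT in this stretch, and H3.3K36M below H3.1K36M. These are separate lines, each scaled to its own library, so the values are no balance of histones within a cell.

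The merged regions with the lowest ratio lay inside that stretch. In chr12:5550001-5590000 H3.3WT held 6.91 RPM and H3.3K36M 2.65 RPM, so that the wild type was 2.61 times higher (2.33 to 2.92). In chr12:5760001-5820000, 60 kb long, the values were 7.20 and 2.83 RPM (2.54 times, 2.32 to 2.78). The other 3 of the 5 lowest were chr4:4250001-4260000 with 6.47 and 2.56 RPM, chr17:5010001-5020000 with 7.63 and 3.06 RPM, and chr17:5070001-5090000 with 7.08 and 2.86 RPM. In all 5 the wild type was well above the autosomal median and the mutant near it. Since the same reads ranked these regions, their folds tend to be overstated.

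Bins with more mutant H3.3 were scattered and short. The 72 bins formed 66 regions on 13 autosomes, the longest of 30 kb (chr1:4340001-4370000), whereas the 60 lower bins formed 38 regions on 8 autosomes, up to 60 kb long. Chromosome 1 had 15 of the 72, chromosome 8 had 13, chromosome 13 had 9, chromosome 3 had 8 and chromosome 6 had 7. The end medians were highest on chromosome 1 (log2 ratio 0.33, rest 0.08), chromosome 8 (0.33, rest 0.11) and chromosome 13 (0.30, rest 0.29), so chromosome 13 differed little from its rest.

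The 5 with the highest ratio were single bins in which H3.3WT was near or below the autosomal median. In chr8:5490001-5500000 H3.3WT held 1.74 RPM and H3.3K36M 8.78 RPM, 5.04 times higher (3.95 to 6.51). In chr8:4820001-4830000 the values were 1.81 and 7.15 RPM (3.96 times, 3.09 to 5.12). In chr6:5030001-5040000 they were 2.86 and 10.8 RPM, in chr10:3980001-3990000 1.81 and 7.10 RPM, and in chr3:5940001-5950000 1.53 and 6.03 RPM. The last 3 overlapped a peak of the deposited H3.3K36M list, and the 2 on chromosome 8 did not. In all 5 both H3.1 libraries held 1.67 to 3.79 RPM.

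**Figure D4:**
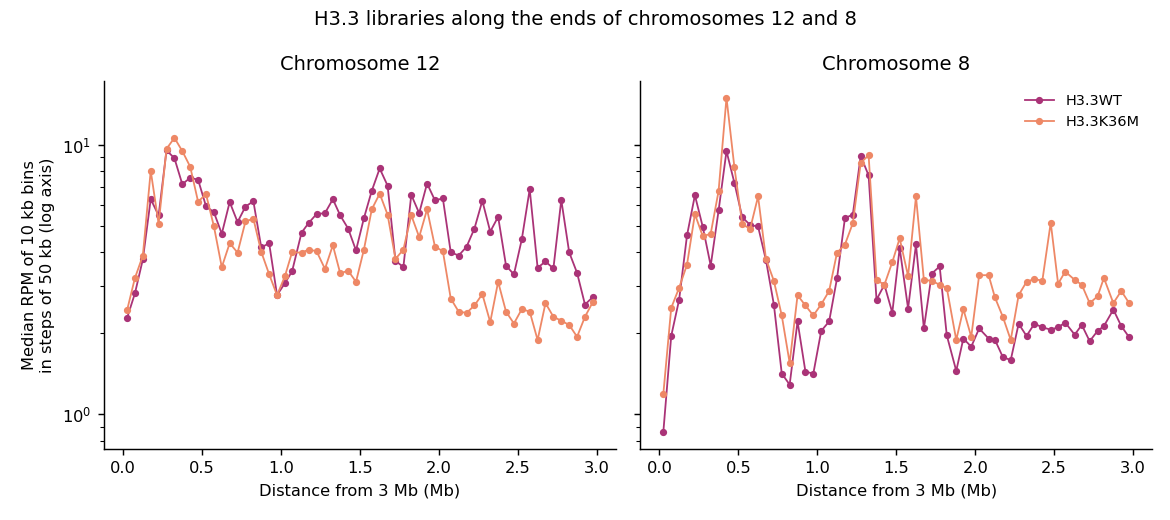
HA signal of H3.3WT and H3.3K36M along the ends of chromosomes 12 and 8, as the median RPM of 10 kb bins in steps of 50 kb (vertical axis, log scale) by distance from 3 Mb in Mb (horizontal axes). On chromosome 12 the H3.3K36M line runs below H3.3WT past 2 Mb, where the stretch from 5.2 to 5.9 Mb averaged 2.43 against 4.70 RPM, and on chromosome 8 it runs mostly above H3.3WT past that distance.

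Mutant and wild-type H3.1 hardly differed at the ends. The median log2 ratio of H3.1K36M over H3.1WT was 0.00 both at the ends and in other autosomal bins. Among end bins, 1 of 5358 (0.0187%) was at least 2-fold higher, where 0.0122% of all autosomal bins were, and 0 were at least 2-fold lower, where 0.0638% were. The 1 bin was chr6:3230001-3240000, where H3.1WT held 0.74 RPM and the mutant 1.71 RPM, a fold of 2.33 with an interval of 1.46 to 3.80. It held few reads in all 4 libraries, with 2.04 RPM in H3.3WT and 2.12 in H3.3K36M. End medians over autosomes ran from -0.12 on chromosome 6 to 0.11 on chromosome 11.

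H3.3 over H3.1 in wild-type lines shows which parts of the ends were rich in the variant that is deposited outside replication. The median log2 ratio of H3.3WT over H3.1WT was -0.24 at the ends and -0.41 in other autosomal bins, 0.16 higher at the ends. The direction turned in bins at or above the median signal, where the difference was -0.03, and with the ends taken to 5 Mb it was 0.07. At least 2-fold higher were 647 of 5358 end bins (12.1%), where 10.8% of all autosomal bins were. At least 2-fold lower were 662 end bins (12.4%), where 17.0% of all autosomal bins were. The higher share was near the background and the lower share under it. Scaled to a median ratio of 0, a shift of 0.40, the counts were 1237 higher and 62 lower. The share of higher went from 49.4% to 95.2%, since the median log2 ratio of all autosomal bins was below 0 before scaling. RPM is relative to each library's own total, so the ratio does not compare amounts of H3.3 and H3.1.

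The mutant pair had fewer poor bins, and their share at the ends was not under the background as it was in the WT pair. H3.3K36M over H3.1K36M had a median log2 ratio of -0.24 at the ends and -0.30 elsewhere. At least 2-fold higher were 561 end bins (10.5%), where 8.48% of all autosomal bins were, and at least 2-fold lower were 206 (3.84%), where 3.3% were. Scaled by a shift of 0.30, these became 855 and 52, and the share of higher went from 73.1% to 94.3%.

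H3.3-rich bins stood in runs, and several of those runs were shared by the WT and K36M pairs. The longest runs of bins at least 2-fold higher were 190 kb long, chr15:3300001-3490000 in the WT pair and chr2:4300001-4490000 in the K36M pair. In chr19:5790001-5850000 the levels were 3.01 RPM in H3.1WT, 2.53 in H3.1K36M, 18.3 in H3.3WT and 22.1 in H3.3K36M. H3.3WT was 6.09 times H3.1WT there (5.61 to 6.62). In chr6:4450001-4500000 the levels were 2.88, 2.22, 15.4 and 19.4 RPM. H3.3WT was 5.36 times H3.1WT (4.89 to 5.90) and H3.3K36M was 8.72 times H3.1K36M (7.91 to 9.63). In both regions H3.1 was below its median where H3.3 was highest.

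Single bins reached the same height. In chr13:5860001-5870000 H3.1WT held 1.22 RPM and H3.3WT 10.3 RPM, 8.46 times more (6.19 to 11.8), while H3.1K36M held 1.16 and H3.3K36M 13.8 RPM. In chr5:5320001-5330000 the H3.3 libraries held 12.4 and 15.7 RPM on 2.07 and 2.19 RPM of H3.1. The other named bins were chr10:5130001-5140000 with 11.7 RPM in H3.3WT and chr17:5970001-5980000, chr13:3740001-3750000 and chr6:5500001-5510000 with 17.3, 15.6 and 13.8 RPM in H3.3K36M. Every bin of the 8 named H3.3-rich regions overlapped a peak of the H3.3K36M list. Regions of the K36M pair were ranked on signal of the library for which that list is named, so their overlap is no independent check.

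**Figure D5:**
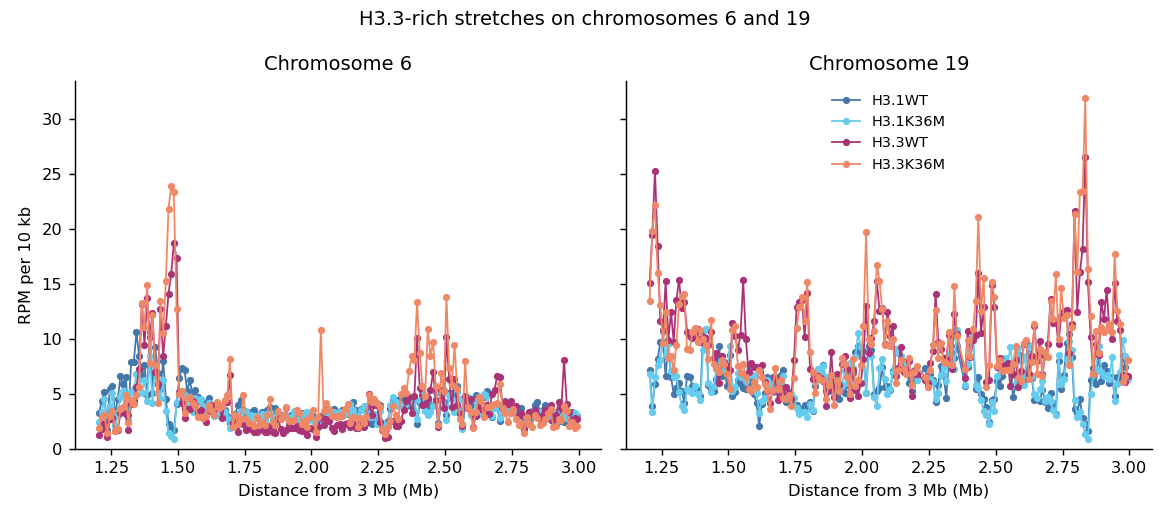
HA signal in RPM per 10 kb (vertical axis) of all 4 libraries by distance from 3 Mb in Mb (horizontal axes), from 1.2 to 3.0 Mb on chromosomes 6 and 19, with 1 point per bin. H3.3WT and H3.3K36M rise together to 15.4 and 19.4 RPM over chr6:4450001-4500000 and to 18.3 and 22.1 RPM over chr19:5790001-5850000, and both H3.1 libraries dip in the same bins.

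H3.3-poor bins, like rich ones, were found on 18 ends, and many ends held both: chromosome 17 had 62 rich and 41 poor bins of the WT pair, and chromosome 10 had 34 and 32. Of the 662 bins lower in the WT pair, 122 were from chromosome 1, 66 from chromosome 3, 64 from chromosome 14 and 59 from chromosome 9, and the longest run was the 100 kb of chr1:4050001-4150000. Of the 206 in the K36M pair, 55 lay on chromosome 9 and 41 on chromosome 14. The 80 kb from the start of chromosome 9, chr9:3000001-3080000, was the longest run of the K36M pair, and 4 of its 8 bins were the high bins above. By autosome, the end medians of the WT pair ran from -1.07 on chromosome 14 and -0.94 on chromosome 1 to 0.43 on chromosome 5 and 0.52 on chromosome 19.

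The poorest regions by name were short. In chr17:4340001-4350000 H3.1WT held 1.56 RPM and H3.3WT 0.34 RPM, 4.53 times less (2.56 to 8.46). In chr13:4510001-4520000 H3.1WT held 4.05 RPM and H3.3WT 1.23 RPM, 3.3 times less (2.41 to 4.57). In the K36M pair, chr3:3000001-3030000 had 4.82 RPM of H3.1K36M but only 1.27 RPM of H3.3K36M, 3.80 times less (3.17 to 4.58), and chr17:3010001-3040000 held 7.88 and 2.33 RPM, 3.38 times less (2.95 to 3.88). The last pair lay within 40 kb of the start, where H3.3 was low in general. Other regions by the same rule were chr16:3640001-3660000, chr3:3860001-3870000, chr9:3140001-3150000 and 3 bins of chromosome 14, in which the compared H3.1 library held 1.22 to 5.39 RPM.

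A stretch on chromosome 16, picked after its values were seen, was high in every library. In the 22 bins of 10 kb within chr16:3100001-3360000 the levels were 9.94 RPM in H3.1WT, 10.2 in H3.1K36M, 8.77 in H3.3WT and 12.5 in H3.3K36M. The wider row chr16:3190001-3230000 inside it held no read in any library and is not part of these levels. H3.3WT was at 0.88 times H3.1WT (0.86 to 0.91), while H3.3K36M was at 1.22 times H3.1K36M (1.19 to 1.25) and at 1.42 times H3.3WT (1.38 to 1.46). Further in lay chr16:4600001-4650000, also picked after its values were seen. It was at least 2-fold richer in H3.3 than in H3.1 in both pairs. The levels were 14.6 RPM in H3.3WT and 14.7 in H3.3K36M on 5.47 and 5.51 RPM of H3.1.

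The deposited peak lists place sharp H3.3K36M enrichment at the ends. Of 8375 H3.3K36M peaks, 286 (3.41%) lay in end bins, on 18 of 19 ends, with a median length of 2.1 kb and 1074.8 kb in all. They touched 352 of 5478 bins (6.43%, exact interval 5.79% to 7.11%), where 4.41% of all autosomal bins were touched. Chromosome 14 had none and chromosome 9 had 1 peak. Chromosome 19 had peaks in 47 bins (16.1%), chromosome 5 in 43 (14.6%) and chromosome 10 in 33 (11.1%). The order by peaks was only partly that of the H3.3 medians. In H3.3K36M, for which the list is named, chromosomes 19 and 5 also had the highest medians (7.77 and 5.28 RPM). Chromosome 10 had a lower H3.3K36M median (3.51 RPM) than chromosomes 11 and 2 (5.14 and 4.53 RPM), which had peaks in 6.23% and 8.68% of bins. In H3.3WT the medians of chromosomes 11 and 2 (5.90 and 5.72 RPM) were above that of chromosome 5 (5.59 RPM).

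Peaks were sparse next to the start of mapped sequence. They touched 3 of 186 bins (1.61%) in the first 100 kb, 8.06% from 100 to 500 kb, and between 6.14% and 6.87% in each 500 kb step beyond. The nearest lay 35.8 kb from 3 Mb. In the touched bins the median levels were 3.71 RPM in both H3.1 libraries, 8.60 in H3.3WT and, in H3.3K36M itself, 9.61 RPM. The last value was part of what selected the bins, whereas the H3.1 and H3.3WT levels were not used to call this list as far as its name tells.

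Of the longest H3.3K36M peaks, those on chromosomes 6 and 19 lay in regions named above and that on chromosome 16 overlapped one. They were chr6:4450801-4495800 (45 kb), chr19:5803001-5843600 (40.6 kb), chr16:4629001-4658200 (29.2 kb), chr8:3403801-3430600 (26.8 kb) and chr2:3202601-3223400 (20.8 kb). In the bins of the chromosome 8 and chromosome 2 peaks H3.3K36M held 15.4 and 15.3 RPM against 9.87 and 9.19 RPM in H3.3WT. Of the 73 H3.1K36M peaks 3 lay at the ends, chr16:3261201-3262400, chr19:5735801-5737200 and chr19:5883401-5884400, and touched 3 bins, where 0.0358% of all autosomal bins were touched. None of the 3 overlapped an H3.3K36M peak.

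The limit at 6 Mb is one of position, and bins on its 2 sides had medians close to each other. The last bins inside it had medians over autosomes of 3.71 RPM in H3.1WT (range 1.90 to 6.40), 3.76 in H3.1K36M (1.88 to 6.34), 2.92 in H3.3WT (0.86 to 14.9) and 2.77 in H3.3K36M (1.04 to 17.3). The first bins outside had medians of 3.68, 3.54, 3.12 and 2.77 RPM.

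No gene was placed on these bins, since the RefSeq gene table used here is for GRCm38.p6 and not for mm9, and whether a named region is exonic, intronic or intergenic is therefore not given. The order of named genes in that table names genes near the chromosome starts but does not place any of them inside the ends. On chromosome 6 the first protein-coding genes include Calcr (the calcitonin receptor), Col1a2 (a chain of type I collagen, abundant in mesenchymal cells) and the imprinted neighbours Sgce and Peg10. On chromosome 12 they include Rab10 (a vesicle transport GTPase), Asxl2 (a Polycomb-associated protein), Dnmt3a (a de novo DNA methyltransferase) and Pomc (the hormone precursor). These names were picked after the values were seen.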

How the data were processed

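HA ChIP-seq was read from 1 library for each of 4 C3H10T1/2 lines. The genotype and the antibody in the sample description set the groups. The protocol text names Cbx2 as the antibody instead of HA. Bowtie 1.0.0 and mm9 come from the submitters' processing notes. Binning, duplicate removal, the treatment of reads with several matches, the peak caller, its threshold and its control are not given in the sources used here. RPM per genomic bin for the 4 libraries, and the positions of peaks for the K36M lines, are as the authors deposited them.

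In each deposited RPM column 100% of values divided by the lowest nonzero value gave whole numbers (tolerance 0.01 read), so reads per bin were recovered. The column sums exceeded the nominal RPM total by 0.429% to 0.512%. No count test was run on these reads, because no group has a second library. Kept were 10 kb bins whose mean over libraries reached 0.5 RPM, and ratios are log2 of RPM plus 0.1 RPM, which understates changes of low bins. Folds of regions are ratios of RPM with Clopper-Pearson 95% intervals on reads. A peak touched a bin at an overlap of 1 base or more. Coordinates are 1-based. Named regions were, by rule, the 5 merged regions (touching bins at least 2-fold apart in 1 direction) at either extreme of each comparison's ratio, the 5 bins of highest RPM in each library, the 5 longest peaks of each list and the bins at the limits; others are said to be picked after their values were seen. The members and lists were chosen with earlier results of these data known. Scripts were tested on simulated data and used matplotlib 3.10.9, scipy 1.17.1, pandas 2.3.3 and numpy 2.4.6 under Python 3.11.15. The alternatives were other pseudocounts, filters and scalings, an end at 5 Mb, leaving out the first 500 kb or single chromosomes, within-chromosome values and other peak overlaps.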

Additional observations from a re-analysis of the deposited data

Results flagged for a closer look

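In the 5 bins of highest signal the mutant stood above the wild type for H3.1 and below it for H3.3. The folds of K36M over WT were 1.13 for H3.1 and 0.91 for H3.3 in chr9:3000001-3010000, and 1.07 and 0.92 in chr9:3010001-3020000. In chr9:3020001-3030000 they were 1.18 and 0.90, in chr9:3030001-3040000 1.15 and 0.90, and in chr12:3110001-3120000 1.17 and 0.95. The difference between the 2 histones was not tested, since each rests on 1 library per line.

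Among the rows wider than 10 kb, which were counted only in 1 alternative, the 20 kb row chr19:5360001-5380000 held 13.7 RPM per 10 kb in H3.3WT. The same row held 12.2 RPM in H3.3K36M, 6.64 in H3.1WT and 7.05 in H3.1K36M.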

How the results depend on the processing

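Over 21 results and 174 alternative values, 131 stayed the same within the rules used, 39 moved and 4 changed direction. A change of direction was counted only where the interval of the main value excluded no difference. For H3.1K36M over H3.1WT, whose main value was near 0, changes of sign were therefore counted as same (-0.0031 without the first 500 kb) or as moved (-0.010 within chromosomes). No paired analysis was possible because each line has 1 library. Leaving out the end of chromosome 14 or 19, leaving out the high bins, counting wider rows and all alternatives for the first 100 kb were added after seeing the data. The cause of the moves was not tested. For H3.3K36M over H3.3WT, the log2 difference between ends and other bins (-0.04) was 0.059 in bins at or above the median signal, -0.0028 with ends cut at 5 Mb and -0.061 within chromosomes. Its 2-fold higher count (72) was 21 with a pseudocount of 1 RPM and 41 at or above the median signal, and its lower count (60) was 21 with 1 RPM and 97 after scaling. For H3.1K36M over H3.1WT, the difference (0.00065) was 0.0076 at or above the median signal and -0.010 within chromosomes. The higher count (1) was 2 with 0.01 RPM, 2 with no filter, and 0 with 1 RPM, at or above the median signal or without the first 500 kb. The lower count (0) was 1 with no filter. For H3.3WT over H3.1WT, the difference (0.16) was 0.12 with 1 RPM, -0.026 at or above the median signal, 0.073 at 5 Mb and 0.11 without chromosome 19. The counts (647 higher, 662 lower) were 1237 and 62 after scaling, and the lower count was 67 with 1 RPM and 112 at or above the median signal. For H3.3K36M over H3.1K36M, the difference (0.06) was 0.023 at or above the median signal and 0.033 without chromosome 19. The counts (561 and 206) were 855 and 52 after scaling, and the lower count was 29 with 1 RPM and 31 at or above the median signal.

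The ratio of end to other levels at or above the median signal was 1.01 in H3.1WT, 1.02 in H3.1K36M, 1.01 in H3.3WT and 1.04 in H3.3K36M. Without chromosome 19 it was 1.02, 1.03, 1.15 and 1.07, and within chromosomes 0.989, 0.992, 1.14 and 1.04. With ends cut at 5 Mb it was 1.14 in H3.3WT. Bins with a peak (352) were 66 when at least 50% of the bin had to be covered. Depth limits single bins to about 130 to 161 reads, and input, mappability and copy number were not tested.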
